A study of Homo sapiens with 12 samples.

Results

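Ribosomal protein genes of the cytoplasmic ribosome were followed in 12 RNA sequencing libraries. All came from THP-1, an established line of human leukaemic monocytes. The members were the 91 protein-coding genes, of 58051 genes in the count table, whose symbols begin with RPL or RPS and a digit or are RPSA, RPLP0, RPLP1 or RPLP2, with the RPS6 kinase genes left out. They were 31 small-subunit genes, 43 large-subunit genes and 3 stalk genes, which together are called the 77 canonical genes here, and 8 paralogues of canonical genes. The symbol rule also took in 3 readthrough genes that join a ribosomal protein gene to its neighbour, the Y-linked copies RPS4Y1 and RPS4Y2, and RPS19BP1, which encodes a binding protein of RPS19 and no ribosomal protein. In all, 85 members had enough counts to be tested. The 6 others were RPL3L, with a few counts, and RPL10L, RPS4Y2 and the 3 readthrough genes, which had 0 counts in all 12 libraries.

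The cells were SDC3-KO cells, made with CRISPR/Cas9 against the gene of the heparan sulphate proteoglycan syndecan-3, or WT cells. All 4 groups carried the same first treatment, 20 ng/ml of the phorbol ester PMA for 24 h and a change of medium, which turns THP-1 monocytes into macrophage-like cells. The groups, with 3 libraries each, were KO with recombinant human interferon gamma (IFN-γ) added the day after, WT with IFN-γ, KO without IFN-γ and WT without IFN-γ. The stated aim was to profile IFN-γ-treated KO cells against IFN-γ-treated WT cells. The labels did not give the IFN-γ dose or its duration, where the gene was edited, or how many edited lines there were, so the KO cells may be 1 clone. They also did not say whether the libraries of 1 group were separate cultures, and the p-values reflect only how far these samples spread, and that spread may be technical.

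A cytoplasmic ribosome is built from a small subunit, which reads the mRNA, and a large subunit, which joins amino acids, and each holds 1 copy of most of its proteins. The genes for these proteins are therefore expressed in step with each other, and their mRNAs are among the most abundant of a cell. Most of these mRNAs begin with a C followed by a run of pyrimidines, the terminal oligopyrimidine (TOP) motif, through which the kinase complex mTORC1 and the RNA-binding protein LARP1 control their translation and stability, and the transcription factor MYC raises the output of many of them. In human monocytic cells IFN-γ is also known to release the large-subunit protein RPL13A from the ribosome into the GAIT complex, which holds back the translation of inflammatory mRNAs.

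The start sites of the members with the largest differences, and of the tested paralogues beside their parent genes, are shown where a start was listed, because a TOP start is common among the canonical genes and rare among the paralogues. Each window runs 5′ to 3′ from 12 bases before the start to 18 bases from the start onwards, and the unbroken pyrimidine run from the start is in capitals. For a gene with several listed starts, the start with the longest run beginning with C is shown.
RPSA: cctgccgcctgtCTTTTCCgtgctacctgc
RPS10: cgcatgctccttCCTTTCCagccccggtac
RPS12: tgcggatgaggcCTCTTTCCCTgccgccgc
RPS16: gcccctagctttCCTTTTCCggttgcggcg
RPS23: tgcggtgcttctCTCTTTCgctcaggcccg
RPS26: acacataacctcgattttcttccgccatcc
RPS27: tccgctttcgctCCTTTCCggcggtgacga
RPS27L: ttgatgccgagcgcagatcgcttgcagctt
RPL17: ctttccctaagcagcctgaggtgagtgttt
RPL22: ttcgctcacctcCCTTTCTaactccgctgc
RPL22L1: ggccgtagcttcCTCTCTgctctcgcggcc
RPL26: cagcgtgtagttCTCTTCCCTTTTgcggcc
RPL26L1: cttccaggggtcggcgaacgaaacgcggag
RPL36A: gcctcgcggtttCTTTCTTTCCgcgccgat
RPL36AL: tttcttccctttCCTgttaggcgagagctg
RPL39: ttccgccagcttCCCTCCTCTTCCTTTCTC
RPL41: aacttcgcctttCTCTCggccttagcgcca
RPL7L1: aagtgcggcgccgtagctaggagcggacgc

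The sequences are from RefSeq (GRCh38.p14). The windows of the small-subunit genes lie at chr3:39406708-39406737 for RPSA, chr6:132814557-132814586 for RPS12, chr12:56041906-56041935 for RPS26 and chr1:153990750-153990779 for RPS27, all on the plus strand. Those of RPS10 (chr6:34426052-34426081), RPS16 (chr19:39435932-39435961), RPS23 (chr5:82278337-82278366) and RPS27L (chr15:63157460-63157489) lie on the minus strand. Of the large-subunit genes and their paralogues, RPL26L1 (chr5:172958717-172958746), RPL36A (chrX:101390999-101391028), RPL41 (chr12:56116621-56116650) and RPL7L1 (chr6:42879604-42879633) are on the plus strand. RPL17 (chr18:49492448-49492477), RPL22 (chr1:6199578-6199607), RPL22L1 (chr3:170870178-170870207), RPL26 (chr17:8383176-8383205), RPL39 (chrX:119791613-119791642) and RPL36AL (chr14:49620609-49620638) are on the minus strand. RPS26 starts with G and RPL17 with A, and the paralogues RPS27L, RPL26L1 and RPL7L1 start with G. The run of RPL39 fills its window and goes on past it. RPL36AL has a run of 3 pyrimidines where its parent RPL36A has one of 10. Of the 77 canonical genes 62 had a listed start, and 46 of these (74.2%) had a TOP start, a C followed by at least 4 letters that are each C or T, at 1 start or more. The share was 5.14% of all 27305 genes with a listed start, 8.70% of 69 genes of the mitochondrial ribosome, and 13 of 16 in a list of other TOP mRNAs such as elongation factors. Of 6 paralogues with a listed start, 1 had a TOP start, RPL22L1. In windows of 300 bases around the start, the E-box CACGTG that MYC binds was found in 4 of the 62 genes (6.45%, against 8.77% of all genes), CCGGAAG in 22 (35.5%, against 12.2%) and TATAAA in 5 (8.06%, against 14%), with both strands searched. Among 11485 tested genes that are no members CCGGAAG was found in 21.4% and TATAAA in 8.79%, and among the genes of the mitochondrial ribosome CCGGAAG in 43.5%. The reverse complement of CCGGAAG opens with pyrimidines, so such a match can overlap a TOP start.

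Libraries held 23616738 to 29426415 assigned counts. Levels are given in CPM, which are counts scaled to the library total, and for SDC3 the totals were also adjusted by TMM. SDC3 stood at 237 to 244 CPM in KO with IFN-γ against 572 to 590 in WT with IFN-γ. Without IFN-γ it stood at 43.9 to 49.9 in KO against 196 to 252 in WT, so the targeted transcript was lower in KO but present. The marker levels that follow are scaled to the library total alone. Of 9 macrophage and monocyte markers all had counts, with a summed level of 4378 to 4797 CPM in every library. The defining marker CD68 had very few assigned counts, at 0.0716 to 0.720 CPM. Reads that overlap several genes were not assigned, and whether this lowered the count of CD68 was not tested. The summed level of 6 markers of cycling cells was 66.5 to 73.0 CPM in KO with IFN-γ, 166 to 199 in WT with IFN-γ, 697 to 735 in KO without IFN-γ and 777 to 876 in WT without IFN-γ. T-cell markers summed to at most 0.169 CPM, B-cell markers to at most 4.12, epithelial markers to at most 2.33 and fibroblast markers to at most 17.9. Cells in different states are mixed in such libraries, and fewer cells of a type and less RNA per cell cannot be told apart.

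Ribosomal protein genes took the smallest share of the library in KO with IFN-γ and the largest in WT without IFN-γ. The 91 members held 1.84% ± 0.036 of the counts in KO with IFN-γ against 2.32% ± 0.018 in WT with IFN-γ, and 2.50% ± 0.059 in KO without IFN-γ against 3.00% ± 0.022 in WT without IFN-γ (SD, n = 3 each). No library of 1 group overlapped another group, since the 3 values ran from 1.80% to 1.87%, from 2.30% to 2.34%, from 2.46% to 2.57% and from 2.99% to 3.03% in that order. Small-subunit genes held 0.727% against 0.926% with IFN-γ and 0.945% against 1.16% without it, KO against WT. Large-subunit and stalk genes held 1.04% against 1.34% and 1.48% against 1.77%. Processed pseudogenes, intronless copies of these mRNAs of which 1598 carry a member's name, took a further 0.355% to 0.594% of the counts as group means, so the pseudogene part of the sum was 16.2% in KO with IFN-γ, 16.3% in WT with IFN-γ, 16.6% in KO without IFN-γ and 16.5% in WT without IFN-γ.

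**Figure D1:**
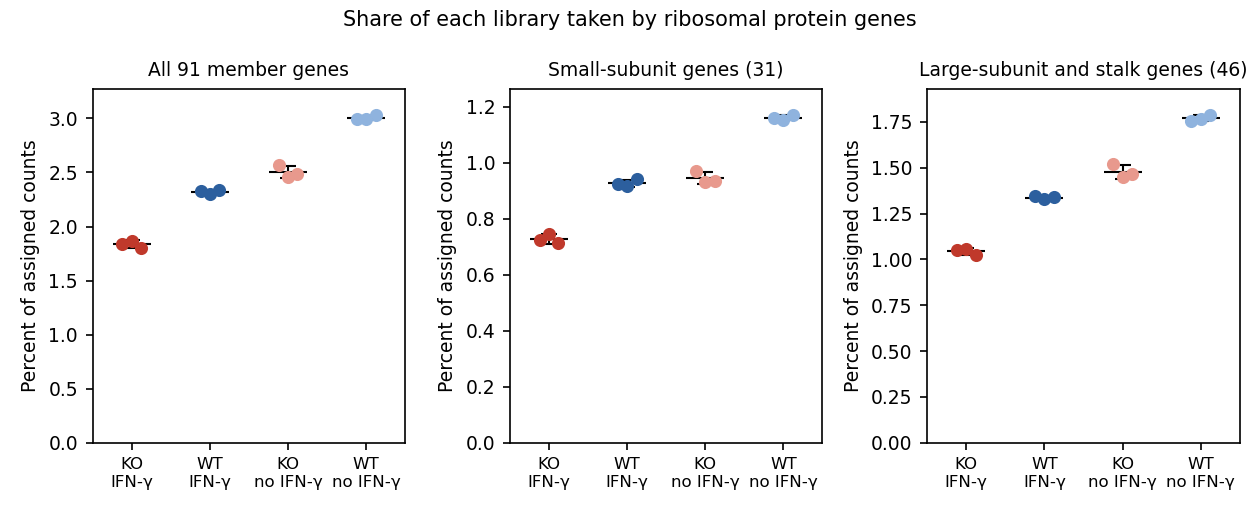
Percent of assigned counts (vertical axis, from 0) taken by all 91 members, the 31 small-subunit genes and the 46 large-subunit and stalk genes in the 4 groups. Dots are libraries, dashes are means and bars are SD (n = 3). The share is 1.84% in KO with IFN-γ, 2.32% in WT with IFN-γ, 2.50% in KO without IFN-γ and 3.00% in WT without IFN-γ, with no overlap between groups.

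With IFN-γ, nearly all canonical ribosomal protein genes were lower in KO than in WT, each by a small amount. Of the 77, 68 fell and 1 rose (edgeR's quasi-likelihood test, adjusted p under 0.05), with a median log2 fold change of -0.29, or 18.1% less. Among the 85 tested members 69 fell and 4 rose, with a median of -0.28, while 24.3% of all 17119 genes tested were lower and 22.9% higher (47.2% in either direction), with a median of -0.01. All 3 KO libraries lay below all 3 WT libraries in 70 canonical genes and above them in 1, where 27.5% of all genes lay below and 26.8% above. The genes are measured closely: the median within-group SD on the log2 scale was 0.047 for the 81 members at 5 CPM or more and 0.074 for 10666 other genes.

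Among small-subunit genes with IFN-γ, 25 of 31 fell and 1 rose. RPSA, a protein of the small subunit that is also known as the laminin receptor, had 215, 222 and 208 CPM (TMM-scaled, here and below) in KO with IFN-γ, against 319, 315 and 319 CPM in WT with IFN-γ. It had 253, 248 and 258 CPM in KO without IFN-γ, against 363, 363 and 366 CPM in WT without IFN-γ. Neither pair of groups overlapped, and RPSA fell to 67.8% of its level in WT where IFN-γ was added (-0.56 ± 0.04 on the log2 scale, SE, adjusted p = 6.2e-14) and to 69.5% where it was not (-0.52, SE 0.04, adjusted p = 1.9e-13). RPS16, whose tail reaches the transfer RNA in the small subunit, had 290, 293 and 281 CPM in KO with IFN-γ against 433, 413 and 416 CPM in WT with IFN-γ, and 301, 292 and 289 CPM in KO without IFN-γ against 403, 424 and 433 CPM in WT without IFN-γ. With TMM scaling, the libraries with and without IFN-γ overlapped within each genotype. The genotypes stood apart by -0.55 with IFN-γ (SE 0.04, adjusted p = 2.1e-13) and -0.52 without it (SE 0.04, adjusted p = 6.1e-13). RPS12, a protein of the head of the small subunit, had the highest level per kilobase of exon of the canonical genes. With library totals in place of TMM it was 617 CPM per kb against a median of 83.1. Its libraries stood at 367, 381 and 360 CPM in KO with IFN-γ against 532, 546 and 571 CPM in WT with IFN-γ, and at 432, 382 and 419 CPM in KO without IFN-γ against 555, 526 and 554 CPM in WT without IFN-γ. The groups did not overlap in either pair (log2 fold changes -0.57 and -0.41, adjusted p = 6.3e-13 and 1.1e-09).

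RPS26, which lies at the exit of the mRNA channel, had 15.5, 16.1 and 16.3 CPM in KO with IFN-γ against 27.3, 26.3 and 24.2 CPM in WT with IFN-γ, and 16.8, 15.1 and 14.1 CPM in KO without IFN-γ against 23.1, 24.4 and 25.6 CPM in WT without IFN-γ. Every KO library was below every WT library, with log2 fold changes of -0.70 (SE 0.08, adjusted p = 1.2e-08) and -0.67 (SE 0.08, adjusted p = 1.5e-08). RPS23, a protein of the decoding centre, had 111, 109 and 105 CPM in KO with IFN-γ against 158, 155 and 174 CPM in WT with IFN-γ, with no overlap (-0.59, SE 0.05, adjusted p = 6.3e-12). Smaller falls were seen in RPS19, a gene mutated in Diamond-Blackfan anaemia (-0.50), RPS6, the substrate of the S6 kinases (-0.37), RPS3, at the mRNA entry (-0.27), RPS27A, made as a fusion with ubiquitin (-0.24), and RPS14, a gene lost in a form of myelodysplastic syndrome (-0.17). The small-subunit genes that did not pass were RPS10, at 1.22 to 1.38 CPM in KO and 1.56 to 2.39 CPM in WT, RPS2 (-0.02), RPS15A (-0.06), RPS9 (0.15) and RPS18 (0.12). RPS9 and RPS18 varied widely within groups, by a mean SD of 0.31 and 0.25 on the log2 scale, and RPS9 ran from 264 to 371 CPM in KO with IFN-γ and from 202 to 312 CPM in WT with IFN-γ.

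RPS27, a zinc-finger protein of the small subunit, was the canonical gene that was higher in KO. It had 86.4, 88.1 and 85.7 CPM in KO with IFN-γ against 77.8, 72.0 and 78.7 CPM in WT with IFN-γ, and 89.1, 81.3 and 83.2 CPM in KO without IFN-γ against 79.3, 72.9 and 77.9 CPM in WT without IFN-γ. The groups did not overlap in either pair, and the log2 fold changes were 0.19 (SE 0.05, adjusted p = 0.0027) and 0.14 (SE 0.05, adjusted p = 0.020). With library totals the values were 0.11 and 0.11 and neither passed (adjusted p = 0.078 and 0.072). Without IFN-γ the call was also lost without KO replicate 1 (0.10, adjusted p = 0.13) or WT replicate 2 (0.11, adjusted p = 0.12). Named pseudogenes held 74.2% of the reads counted for RPS27 and its copies together, and with them added the log2 fold changes were 0.11 and 0.11. The 20 tested genes nearest to RPS27 on chromosome 1 had median log2 fold changes of 0.72 and 0.68, and the part of the position in the result was not tested.

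Among large-subunit genes with IFN-γ, 40 of 43 fell and 0 rose by edgeR, and 0 rose at an unadjusted p under 0.05, by DESeq2 or by limma-voom. RPL26, which is also known to bind the mRNA of p53, had 31.1, 31.3 and 32.1 CPM in KO with IFN-γ against 47.7, 45.9 and 52.0 CPM in WT with IFN-γ, and 35.6, 33.6 and 35.4 CPM in KO without IFN-γ against 56.3, 51.3 and 54.7 CPM in WT without IFN-γ. No KO library reached a WT library, and the log2 fold changes were -0.62 (SE 0.06, adjusted p = 4.6e-10) and -0.63 (SE 0.06, adjusted p = 1.3e-10). RPL5 and RPL11, which with a ribosomal RNA form the particle that binds MDM2, fell by 0.24 and 0.19 on the log2 scale. RPL3, at the peptidyl transferase centre, fell by 0.23, RPL13A of the GAIT complex by 0.27, RPL10, needed for the last step of large-subunit maturation, by 0.15, and RPL7, RPL22 and RPL39, parents of paralogues, by 0.41, 0.38 and 0.28. RPL17, at the exit tunnel, had the largest fold of all members, at 1.82, 2.89 and 2.60 CPM in KO with IFN-γ against 4.65, 5.81 and 5.0 CPM in WT with IFN-γ (-1.08, SE 0.18, adjusted p = 5.6e-06). Named pseudogenes held 95.6% of the reads of RPL17 and its copies, and the log2 fold change with them added was -0.63. RPL35 (-0.02), RPL36 (-0.08) and RPL36A, at 0.689 to 1.03 CPM in KO and 1.00 to 1.82 CPM in WT, did not pass.

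The 3 stalk genes, whose proteins form the arm of the large subunit that recruits elongation factors, all fell in KO with IFN-γ. RPLP0, the base of the stalk, had 482, 502 and 472 CPM in KO with IFN-γ, 576, 562 and 560 CPM in WT with IFN-γ, 663, 631 and 642 CPM in KO without IFN-γ and 697, 720 and 710 CPM in WT without IFN-γ. These 4 groups did not overlap, with KO below WT in each condition (-0.22, adjusted p = 4.1e-06 with IFN-γ, and -0.14, adjusted p = 0.0017 without it). RPLP1 had 389, 377 and 359 CPM in KO with IFN-γ against 503, 496 and 494 CPM in WT with IFN-γ (-0.41, adjusted p = 1.1e-09). RPLP2 had 195, 195 and 179 CPM in KO with IFN-γ against 256, 257 and 237 CPM in WT with IFN-γ (-0.40, adjusted p = 2.2e-08). RPLP1 and RPLP2, the acidic proteins of the arm, also fell without IFN-γ (-0.28 and -0.26).

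Without IFN-γ the pattern between genotypes was much the same. Of the 77 canonical genes 65 fell in KO and 1, RPS27, rose, with a median log2 fold change of -0.24, or 15.5% less. Among the 85 tested members 68 fell and 3 rose, where 24.8% of all genes tested were lower and 25.4% higher (50.1% in either direction), with a median of 0.01. By class, 24 of 31 small-subunit genes fell and 1 rose, 38 of 43 large-subunit genes fell and 0 rose (0 also at an unadjusted p under 0.05, by DESeq2 and by limma-voom), and all 3 stalk genes fell. In 65 canonical genes all KO libraries lay below all WT libraries, and in 1 above, where 27.4% of all genes lay below and 28.6% above. The largest falls were those of RPL17 (-0.82), RPL39L (-0.76), RPS10 (-0.72), RPS26 (-0.67), RPL26 (-0.63) and RPL41, the smallest protein of the ribosome (-0.53). RPS10, mutated in Diamond-Blackfan anaemia, had 1.40, 1.56 and 1.19 CPM in KO without IFN-γ against 1.87, 2.65 and 2.31 CPM in WT without IFN-γ, a low level at which the groups did not overlap (adjusted p = 0.0090). Its log2 fold change was -0.12 (adjusted p = 0.38) with named pseudogenes added, and -0.59 (adjusted p = 0.062) without WT replicate 2. RPS18 passed (-0.33, adjusted p = 0.020) with overlapping libraries of 388 to 544 CPM in KO and 447 to 665 CPM in WT.

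The KO-to-WT differences with and without IFN-γ come from separate libraries, so they can be set side by side. Of the 85 tested members 64 fell in both, 3 rose in both (RPS27, RPL36AL and RPS4Y1) and 0 were called in opposite directions. Joint calls were not counted over all genes. At most 24.3% of all genes can have fallen in both and 22.9% risen in both, since these are the shares called with IFN-γ. Across genes the log2 fold changes of the 85 members had a Pearson correlation of 0.89, and those of the 77 canonical genes one of 0.87, given as a description. RPS6 fell by 0.37 with IFN-γ and by 0.31 without it, RPL13A by 0.27 and 0.26, RPS3 by 0.27 and 0.23, RPS14 by 0.17 and 0.16, RPS19 by 0.50 and 0.43 and RPS27A by 0.24 and 0.23. Among the other large-subunit genes the pairs of values were -0.24 and -0.15 for RPL5, -0.19 and -0.14 for RPL11, -0.23 and -0.17 for RPL3, -0.15 and -0.12 for RPL10 and -0.41 and -0.34 for RPL7. RPL10 lost its call without IFN-γ when KO replicate 3 was left out (-0.10, adjusted p = 0.058).

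**Figure D2:**
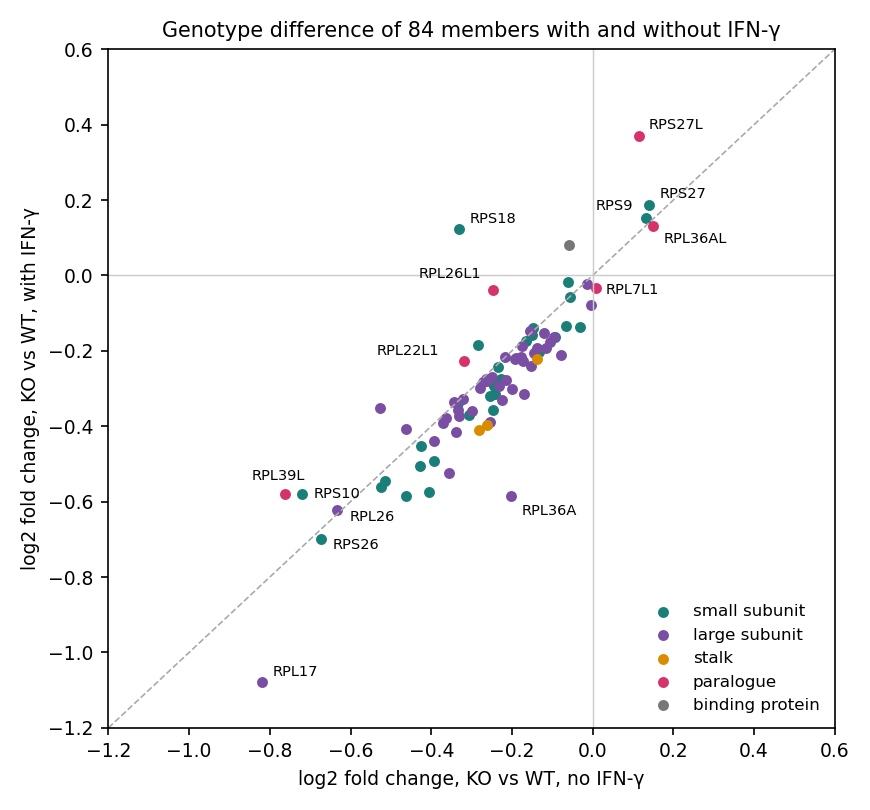
Log2 fold change of KO against WT without IFN-γ (horizontal axis) and with IFN-γ (vertical axis) for the 84 tested members other than RPS4Y1, coloured by class; the dashed line marks equal values. Most points lie below 0 on both axes near the line; RPL17 is lowest on both, and of those plotted RPS27L is highest with IFN-γ, at 0.37.

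With TMM scaling, fewer canonical genes were lower with IFN-γ than between genotypes, and by less, but this order did not hold with library totals. Then 73 of 77 fell with IFN-γ in KO and 71 in WT, where 53.4% and 48.3% of all genes were lower. In KO against WT 73 fell with IFN-γ and 69 without it, where 30.5% and 27% of all genes were lower. With TMM, in KO 43 of 77 fell and 2 rose with IFN-γ, with a median log2 fold change of -0.14, and in WT 38 fell and 3 rose, with a median of -0.10. Over the 85 members 45 fell and 5 rose in KO, where 31.8% of all genes were lower and 29.2% higher (61.1% in either direction), and 43 fell and 4 rose in WT, where 27.9% were lower and 28.6% higher (56.5% in either direction). The median of all genes was -0.05 in KO and -0.02 in WT. The libraries with IFN-γ lay below those without it in 47 canonical genes in KO (34.6% of all genes) and in 37 in WT (30.3%), and above them in 3 in KO (31.6%) and 2 in WT (30.2%). Large-subunit genes fell in 29 of 43 cases in KO and 25 of 43 in WT, small-subunit genes in 12 of 31 in both, and stalk genes in 2 of 3 and 1 of 3. The log2 fold changes of the 85 members in KO and in WT, which are separate libraries, had a Pearson correlation of 0.79 across genes, and 37 members fell in both. Joint calls were not counted over all genes, but at most 27.9%, the share lower in WT, can have fallen in both.

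Among the canonical genes, those that IFN-γ lowered most were large-subunit genes and the stalk base, while the paralogue RPL39L fell further in both genotypes (-0.55 in KO and -0.73 in WT). RPL6, a protein of the large subunit, had 149, 158 and 151 CPM in KO with IFN-γ against 221, 207 and 216 CPM in KO without IFN-γ, and 186, 187 and 196 CPM in WT with IFN-γ against 243, 240 and 242 CPM in WT without IFN-γ. The treated libraries were below the untreated ones in both genotypes (-0.49, SE 0.04, adjusted p = 3.0e-12 in KO, and -0.35, SE 0.04, adjusted p = 6.8e-09 in WT). RPL23, another binder of MDM2, had 323, 325 and 315 CPM in KO with IFN-γ against 461, 433 and 444 CPM in KO without IFN-γ, and 414, 407 and 441 CPM in WT with IFN-γ against 538, 521 and 536 CPM in WT without IFN-γ. Again no libraries overlapped (-0.47 in KO, adjusted p = 1.6e-12, and -0.34 in WT, adjusted p = 3.6e-09). RPLP0 fell by 0.41 in KO (adjusted p = 8.1e-12) and by 0.33 in WT (adjusted p = 1.8e-09), RPL5 by 0.40 and 0.31, RPL3 by 0.38 and 0.32, RPS6 by 0.38 and 0.31, and RPL14, of the large subunit, by 0.34 and 0.40. RPL13A fell by 0.27 and 0.26, RPS3 by 0.29 and 0.24, RPL7 by 0.36 and 0.28, RPSA by 0.23 and 0.20 and RPL22 by 0.17 and 0.16. RPLP1 fell in KO (-0.17, adjusted p = 0.0010) and had -0.04 in WT (adjusted p = 0.47), and RPLP2 passed in neither (-0.06 and 0.08).

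Several genes that were called between genotypes did not pass with IFN-γ in KO or in WT. They were RPS16 (-0.03 in KO and 0.00 in WT), RPS26 (0.06 and 0.09), RPS19 (-0.03 and 0.05), RPS14 (-0.06 and -0.05), RPS27 (0.04 and -0.01), RPL17 (-0.12 and 0.14) and RPL39 (-0.11 and -0.05). RPL36A, called in none of the 4 comparisons, had -0.42 and -0.03. These values hold for TMM. With library totals the median of all genes moved to -0.35 in KO and -0.27 in WT. Every gene shifts down alike with that scaling, RPS16, RPS26 and RPL17 included. Under it RPS14 (-0.36 and -0.30), RPS19 (-0.32 and -0.20), RPS27 (-0.26 and -0.26) and RPL39 (-0.41 and -0.30) were lower with IFN-γ in both genotypes. RPL11 fell in KO (-0.14) and missed the threshold in WT (-0.09, adjusted p = 0.052, and from 0.023 to 0.034 without WT replicate 3 with IFN-γ or WT replicate 2 without it). RPL10 fell by 0.14 and 0.11, though in WT its call was lost without replicate 2 with IFN-γ or without untreated replicate 2 or 3 (adjusted p from 0.057 to 0.082). RPL26 fell by 0.15 in KO (adjusted p = 0.043) and by 0.16 in WT (adjusted p = 0.025), but the first call was lost without any 1 of 5 of the 6 libraries (adjusted p from 0.063 to 0.18) and the other without any 1 of 4 (adjusted p from 0.070 to 0.14). Those libraries were KO replicates 1, 2 and 3 with IFN-γ and 1 and 3 without it, and WT replicates 1 and 2 with IFN-γ and 1 and 3 without it.

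Members called higher with IFN-γ depended on the library scaling. RPL28, a large-subunit protein, had 459, 432 and 419 CPM in KO with IFN-γ against 415, 378 and 357 CPM in KO without IFN-γ, and was higher by 0.19 in KO (adjusted p = 0.0023) and by 0.21 in WT (adjusted p = 0.0010). RPS27A was higher by 0.14 and 0.15, RPL36AL by 0.13 and 0.15, RPL26L1 by 0.31 in KO and RPS19BP1 by 0.24 in KO. None of these calls held with upper-quartile scaling, and with library totals all but RPL26L1 (0.02, adjusted p = 0.87) turned to values below 0, from -0.17 to -0.05. RPS27A in KO also lost its call when the untreated KO replicate 2 was left out (0.11, adjusted p = 0.059). RPL36AL lost it in KO without treated replicate 1 (adjusted p = 0.054) or untreated replicate 2 (0.093), and in WT without untreated replicate 2 (0.053).

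**Figure D3:**
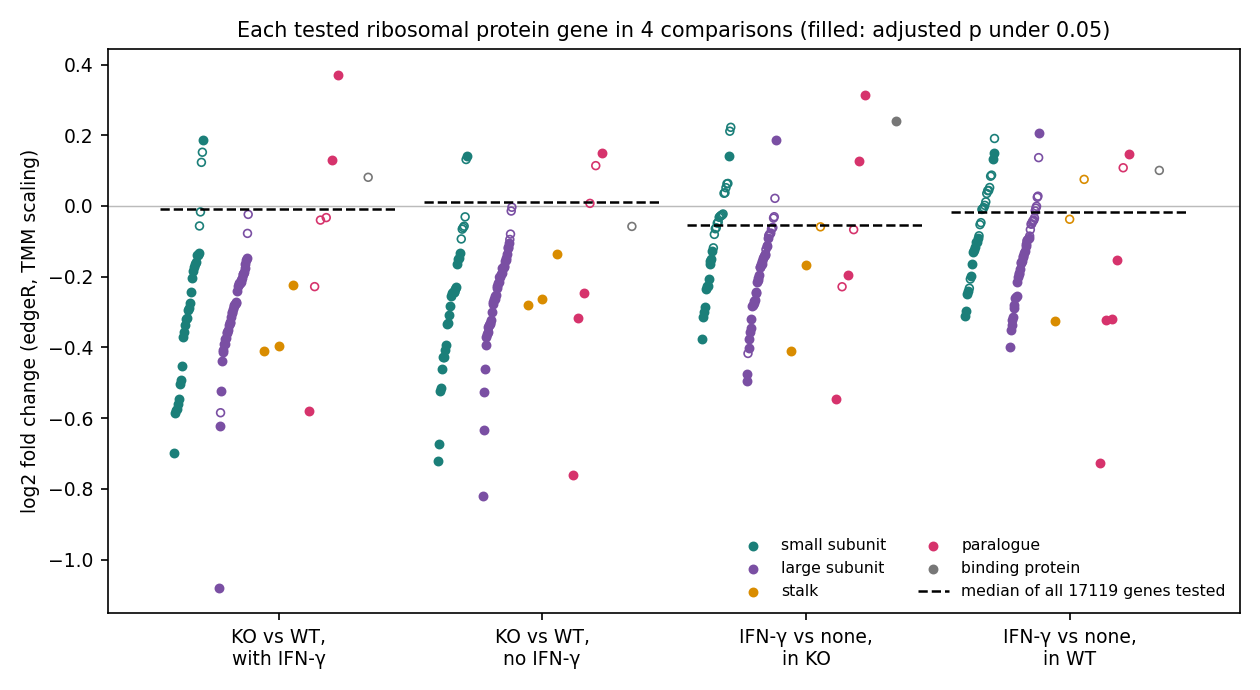
Log2 fold change (TMM scaling, vertical axis) of the 84 tested members other than RPS4Y1 in the 4 comparisons, as points by class, filled where the adjusted p is under 0.05; dashed lines mark the median of all 17119 genes tested. Small-subunit, large-subunit and stalk genes lie mostly below the dashed line in both genotype comparisons (medians of the 77 canonical genes -0.29 and -0.24), while paralogues spread from -0.76 to 0.37.

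With TMM scaling in edgeR, no canonical gene passed for a difference between KO and WT in its IFN-γ response. For the difference of the IFN-γ responses, KO minus WT, 0 of 77 canonical genes were called by edgeR and by DESeq2 and 1 was called lower by limma-voom. At an unadjusted p under 0.05 edgeR had 5 members lower and 2 higher among the 85. Of all genes tested 7.86% were called lower and 7.61% higher (15.5% in either direction). Other scalings gave canonical calls in edgeR. With RLE 1 was higher, where 8.76% of all genes were, and with upper-quartile scaling 1 was lower, where 8.11% were. With library totals 6 were lower and 0 higher, where 10.8% of all genes were lower and 5.84% higher. The median difference was -0.04 for the canonical genes and -0.03 for all genes. RPS12 came nearest to a call among the canonical genes (-0.17, SE 0.06, adjusted p = 0.055), with an IFN-γ response of -0.16 in KO and 0.01 in WT. The widely varying RPS18 (0.46, adjusted p = 0.064), RPL23 (-0.14, adjusted p = 0.089) and RPL6 (-0.14, adjusted p = 0.092) followed, and these 4 were chosen after their values were seen.

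Put in order by group mean of TMM-scaled CPM, 67 of the 77 canonical genes were lowest in KO with IFN-γ. In WT without IFN-γ 60 were highest, with 59 doing both. In 43 genes the order from low to high was KO with IFN-γ, KO without IFN-γ, WT with IFN-γ and WT without IFN-γ, so that WT with IFN-γ stood above KO without it. In 16 genes the middle groups were exchanged, with KO without IFN-γ above WT with IFN-γ. RPL14 shows the first order, with 173, 181 and 172 CPM in KO with IFN-γ, 229, 218 and 221 CPM in KO without IFN-γ, 238, 230 and 229 CPM in WT with IFN-γ and 303, 294 and 323 CPM in WT without IFN-γ. Its middle groups nearly touched, and the outer groups stood clear. In 8 further genes WT with IFN-γ was the highest group and KO with IFN-γ the lowest, and in 8 KO without IFN-γ was the lowest. These orders were not counted over all genes tested. Whether they are particular to the ribosomal protein genes therefore cannot be read from these counts. 

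The library scaling set the size of the IFN-γ responses and moved the genotype differences less. From TMM to library totals the member median went from -0.14 to -0.44 in the IFN-γ response of KO. Between genotypes with IFN-γ it went from -0.28 to -0.36. The median of the 85 members lay below that of all genes by nearly the same amount under TMM, RLE, TMM computed without the members, upper-quartile scaling and library totals, because a scaling moves every gene alike. With library totals the median of all genes moved to -0.09 and -0.02 in the genotype comparisons with and without IFN-γ, to -0.35 in the IFN-γ response of KO and to -0.27 in that of WT, and that of the members to -0.36, -0.28, -0.44 and -0.35. Members lower then numbered 76, 72, 79 and 78 of 85, where 30.5%, 27%, 53.4% and 48.3% of all genes were lower, and members higher 2, 2, 0 and 0, where 16.9%, 22.6%, 16.3% and 16.2% of all genes were higher. With upper-quartile scaling 70 members fell in the IFN-γ response of KO and 66 in that of WT, where 40.1% and 36.5% of all genes were lower and 22.9% and 21.9% higher. Under all 5 scalings 68 members fell in KO against WT with IFN-γ, 68 without IFN-γ, 42 with IFN-γ in KO and 43 with IFN-γ in WT. Higher under all 5 were RPS27L and RPS4Y1 with IFN-γ and RPL36AL and RPS4Y1 without it. Relative to the median of all genes, 74 of the 77 canonical genes were lower in KO with IFN-γ, 75 in KO without IFN-γ, 58 in the IFN-γ response of KO and 55 in that of WT.

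**Figure D4:**
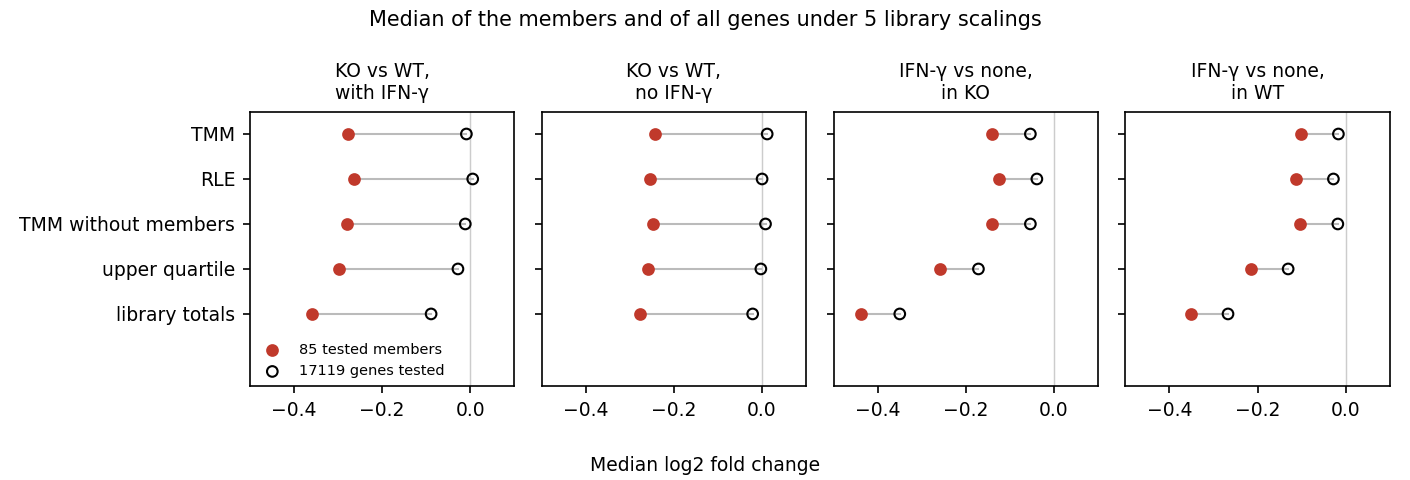
Median log2 fold change (horizontal axis) of the 85 tested members (filled) and of all 17119 genes tested (open) under 5 library scalings, 1 panel a comparison. The distance between both points stays nearly the same within a panel, and in the IFN-γ panels both shift left with upper-quartile scaling and library totals, to -0.44 and -0.35 in KO with library totals.

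The paralogues did not share 1 direction. Of the 6 tested, 2 rose and 1 fell in KO with IFN-γ, where 22.9% of all genes were higher and 24.3% lower. Without IFN-γ 1 rose and 3 fell, where 25.4% of all genes were higher and 24.8% lower. With so few genes, no difference from these shares was tested. RPS27L, a copy of RPS27 that p53 induces, had 48.8, 48.2 and 51.9 CPM in KO with IFN-γ against 38.4, 36.4 and 40.5 CPM in WT with IFN-γ, and 54.3, 48.0 and 53.8 CPM in KO without IFN-γ against 50.5, 46.2 and 47.6 CPM in WT without IFN-γ. The WT libraries with IFN-γ were the low ones, and only the groups without IFN-γ overlapped between genotypes. RPS27L rose by 0.37 in KO with IFN-γ (SE 0.06, adjusted p = 8.4e-06), had 0.11 without it (adjusted p = 0.12, and 0.033 without KO replicate 2), and fell with IFN-γ by 0.32 in WT (adjusted p = 3.8e-05) against -0.07 in KO (adjusted p = 0.35). The difference of these responses was 0.26 (SE 0.09, adjusted p = 0.040), the only call among the 85 members. That call was lost with library totals (0.21, adjusted p = 0.094) and without KO replicate 1 or 3 with IFN-γ (0.055 and 0.12), KO replicate 2 without it (0.16), WT replicate 1 or 2 with IFN-γ (0.071 and 0.12) or WT replicate 1 or 3 without it (0.088 and 0.062).

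RPL39L, a copy of RPL39 known best from testis, had 2.35, 2.69 and 3.21 CPM in KO with IFN-γ against 3.73, 4.18 and 4.48 CPM in WT with IFN-γ, and 4.54, 3.41 and 4.16 CPM in KO without IFN-γ against 7.66, 6.91 and 5.97 CPM in WT without IFN-γ. KO lay below WT and treated below untreated in each pair, so that RPL39L fell in all 4 comparisons, by 0.58 and 0.76 between genotypes and by 0.55 and 0.73 with IFN-γ in KO and in WT, more than its parent RPL39 (-0.28, -0.22, -0.11 and -0.05). RPL39 itself had 18.5, 19.6 and 18.2 CPM in KO with IFN-γ against 21.2, 23.2 and 23.9 CPM in WT with IFN-γ, and its call without IFN-γ was lost without KO replicate 2 or WT replicate 1 or 3 (adjusted p from 0.076 to 0.12). Named pseudogenes held 77.5% of the reads counted for RPL39 and its copies together. Whether the paralogue and the parent differed in their fold change was not tested.

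RPL22L1, whose mRNA RPL22 is known to hold down in mouse cells, had 12.2, 11.6 and 9.25 CPM in KO with IFN-γ against 11.9, 11.6 and 15.3 CPM in WT with IFN-γ, and 12.7, 12.3 and 13.7 CPM in KO without IFN-γ against 17.2, 15.4 and 15.8 CPM in WT without IFN-γ. It fell in KO without IFN-γ (-0.32, adjusted p = 0.010) and with IFN-γ in WT (-0.32, adjusted p = 0.010), and had -0.23 in both other comparisons (adjusted p = 0.091 and 0.069). At this level single libraries mattered: its first call was lost without KO replicate 2 (adjusted p = 0.052), its other call without WT replicate 1 or 2 with IFN-γ (0.064 and 0.077), and the genotype difference with IFN-γ passed without KO replicate 1 (0.044) or WT replicate 2 (0.047), and its IFN-γ response in KO without treated KO replicate 1 (0.033). RPL22 had 113, 123 and 111 CPM in KO with IFN-γ against 146, 150 and 155 CPM in WT with IFN-γ, and was called lower. In that comparison RPL22L1 was not called and its libraries overlapped. Without IFN-γ both genes were called lower in KO. How RPL22 and RPL22L1 relate in these cells was not tested.

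RPL36AL, a close copy of RPL36A, was the opposite case, at 150, 153 and 140 CPM in KO with IFN-γ against 137, 134 and 134 CPM in WT with IFN-γ, and 140, 131 and 135 CPM in KO without IFN-γ against 126, 116 and 125 CPM in WT without IFN-γ. It rose by 0.13 (SE 0.05, adjusted p = 0.018) and by 0.15 (SE 0.05, adjusted p = 0.0066) in KO. The first call was lost without KO replicate 1 (adjusted p = 0.066) or WT replicate 2 (0.051), and with library totals (0.05, adjusted p = 0.38), and the other without WT replicate 2 (0.054). With library totals, RPL36AL carried 181 CPM per kb and its parent RPL36A 0.309, the lowest of the canonical genes. Of the reads of RPL36A and its copies, 98.7% were given to pseudogenes. With those added, RPL36A had log2 fold changes of -0.47 and -0.31 in KO against WT with and without IFN-γ. RPL26L1, a copy of RPL26, had 13.1, 12.3 and 12.8 CPM in KO with IFN-γ against 12.7, 12.7 and 14 CPM in WT with IFN-γ, which overlapped (-0.04, adjusted p = 0.75), and was lower in KO without IFN-γ (-0.25, adjusted p = 0.023), a call lost without KO replicate 1, 2 or 3 or WT replicate 2 (adjusted p from 0.051 to 0.13). RPL7L1, which works in the making of the large subunit, had -0.03 and 0.01 between genotypes and fell with IFN-γ by 0.19 in KO and 0.15 in WT, beside falls of 0.41 and 0.34 between genotypes in RPL7. Of the remaining members, RPS4Y1 rose by 0.51 and 0.41 in KO while its X-linked counterpart RPS4X fell by 0.18 and 0.28. The 10 tested genes nearest to RPS4Y1 had medians of 0.32 and 0.38, and the part of the position was not tested. RPS19BP1 had 0.08 and -0.06.

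**Figure D5:**
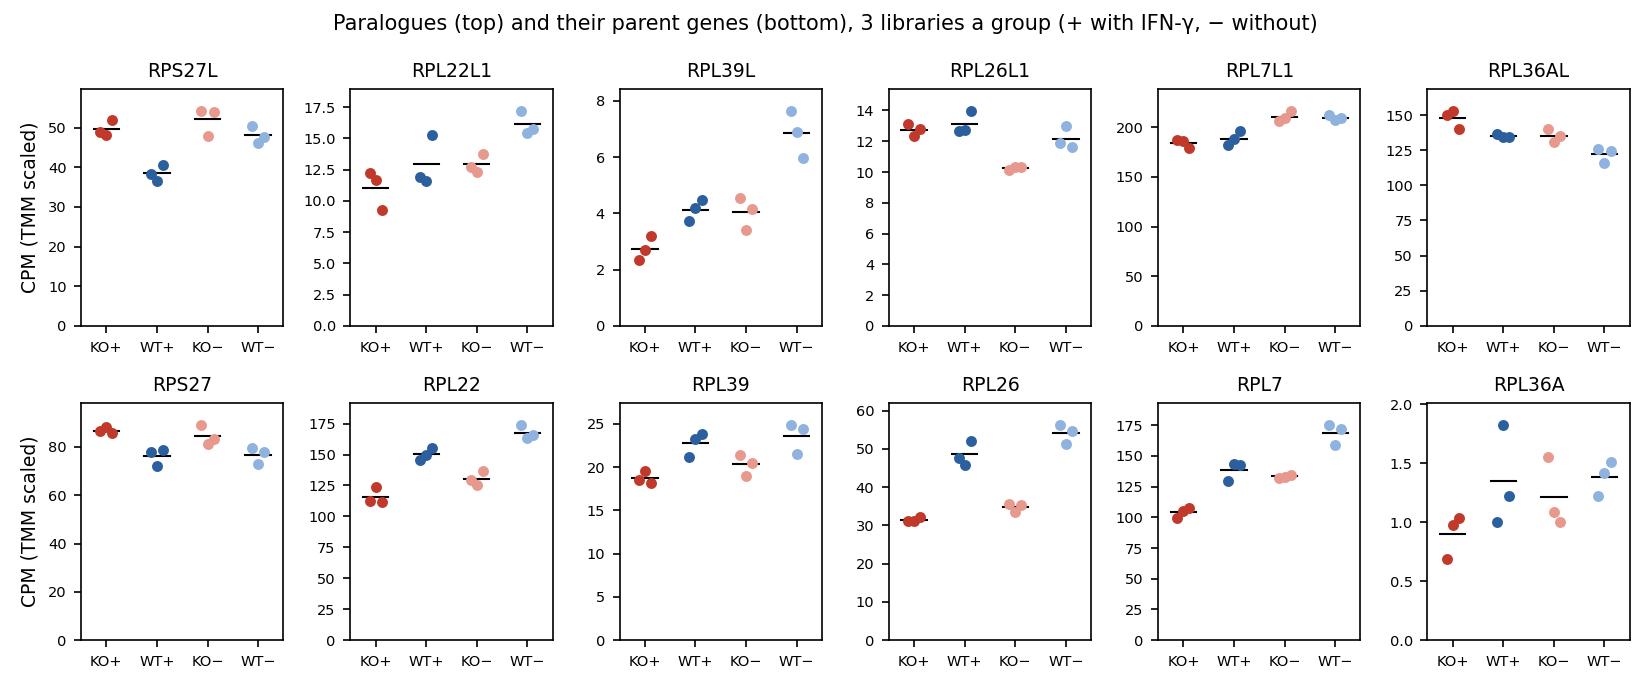
CPM (TMM-scaled, vertical axes from 0) of the 6 tested paralogues (top) and their parent genes (bottom) in each library, with + for IFN-γ and − for none; dots are libraries and lines are means of 3. RPS27L and RPL36AL are higher in KO with IFN-γ than in WT with IFN-γ, and RPL22, RPL39, RPL26 and RPL7 are lower.

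The part of the reads counted for named pseudogenes did not divide the canonical genes in the genotype comparisons. Of 36 genes whose named pseudogenes held under 5% of the summed reads, 33 fell in KO with IFN-γ (median -0.29), as did 35 of the 41 others (median -0.29), and without IFN-γ 31 of 36 and 34 of 41 fell (medians -0.24 and -0.24). RPS16, RPS12 and RPS26 belong to those with a low pseudogene part, at 0.010%, 0.23% and 1.7%, while pseudogenes held 54.7% for RPL26. For IFN-γ, 17 of the 36 and 26 of the 41 fell in KO (medians -0.08 and -0.17), and 13 of 36 and 25 of 41 in WT (medians -0.05 and -0.14).

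The canonical genes lie on 21 chromosomes and were set against their tested neighbours, up to 10 on each side. In KO against WT, 70 of the 77 with IFN-γ and 71 without it had a log2 fold change below the median of their neighbours, whose own medians centred on -0.02 and 0.00. Gene and neighbours still varied together, with a Pearson correlation of 0.51 in both comparisons. Some of the largest differences sat among neighbours that differed the same way. The neighbours of RPL26 on chromosome 17 had medians of -0.59 and -0.44, those of RPS26 on chromosome 12 -0.46 and -0.34, and those of RPL17 on chromosome 18 -0.36 and -0.41. Those of RPSA on chromosome 3 had -0.24 and -0.24. The neighbours of RPS12 and RPS23 did not follow, with medians of -0.10 and 0.12 for RPS12 and of 0.05 and 0.13 for RPS23. The part of the position in these results was not tested. For IFN-γ, 50 of 77 in KO and 52 of 77 in WT lay below their neighbours.

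Canonical genes with and without a TOP start at the listed start site had like differences. The start sites were not measured in these cells. In RPS26, RPL10A and RPL4, classed as without, a pyrimidine run begins a few bases past the listed start. The split therefore cannot tell TOP mRNAs from others. With IFN-γ the median log2 fold change of KO against WT was -0.28 for 46 genes with a TOP start and -0.29 for 16 without, and without IFN-γ it was -0.24 and -0.26. RPS26, which starts with G, is among the largest falls in both, beside RPSA, RPS12 and RPS16 with the runs shown above. For IFN-γ the medians were -0.15 with and -0.12 without a TOP start in KO, and -0.10 and -0.09 in WT.

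Other genes of translation were counted beside the ribosomal proteins, with no test between the lists. Among all genes tested 24.3% were lower and 22.9% higher in KO with IFN-γ, and 24.8% and 25.4% without it. Of 21 other TOP mRNAs tested, 11 fell and 1 rose in KO with IFN-γ (median -0.12) and 12 fell and 1 rose without it (median -0.12), with the histone chaperone gene NAP1L1 lowest (-0.75 and -0.84) and the elongation factor gene EEF2 higher (0.16 and 0.15). Of 43 ribosome biogenesis genes 18 fell and 5 rose with IFN-γ (median -0.11) and 25 fell and 4 rose without it (median -0.21), among them the rRNA methyltransferase gene NOP2 (-0.75 and -0.82), while SBDS, which frees the large subunit for use, rose (0.79 and 0.42). Initiation factors had 5 of 30 lower and 9 higher with IFN-γ and 13 lower and 5 higher without it. Of 18 genes of mTORC1 and TOP control 2 fell and 9 rose with IFN-γ and 4 fell and 7 rose without it. LARP1, which binds TOP mRNAs, averaged 767 ± 0.205 CPM in KO with IFN-γ against 540 ± 5.87 CPM in WT with IFN-γ (0.51, adjusted p = 2.3e-13). The genes of the mitochondrial ribosome, a separate machine, had 18 of 77 lower and 20 higher with IFN-γ (median 0.01) and 19 lower and 20 higher without it (median 0.01). Of 74 nuclear genes of oxidative phosphorylation 11 fell and 19 rose with IFN-γ and 14 fell and 20 rose without it. Of the 4 GAIT complex genes, RPL13A and GAPDH fell and EPRS1 rose in both genotype comparisons.

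MYC and the cycling markers also differed between the groups. MYC averaged 3.64 ± 0.223 CPM in KO with IFN-γ against 14.9 ± 0.388 CPM in WT with IFN-γ, and 14.9 ± 0.490 CPM in KO without IFN-γ against 30.5 ± 3.26 CPM in WT without IFN-γ (SD, n = 3 each). It fell in KO by 2.03 with IFN-γ (adjusted p = 3.6e-16) and by 1.04 without it (adjusted p = 3.1e-12), and with IFN-γ by 2.03 in KO and by 1.04 in WT. MYC, the cycling sum and the share of ribosomal protein genes were each lowest in KO with IFN-γ and highest in WT without it. Of the 6 cycling markers 6 fell in KO with IFN-γ and 4 without it, and 6 fell with IFN-γ in each genotype, with the summed levels given above. Scaled to the library total, the cycling sum was lower in WT with IFN-γ than in KO without it. The share of ribosomal protein genes was lower there too, at 2.32% against 2.50%. Gene by gene the order depended on the scaling. With TMM-scaled CPM, 43 of 77 canonical genes had the order KO with IFN-γ, KO without it, WT with IFN-γ, WT without it. In 16 the middle groups were exchanged, which is the order of the cycling sum. Neither order was counted over all genes tested. For the difference of the IFN-γ responses, KO minus WT, edgeR with TMM scaling gave MYC -0.99 (adjusted p = 3.0e-06). All 6 cycling markers were called lower (median -2.02), and 0 of 77 canonical genes were called (median -0.04). With library totals 6 of the 77 were called lower, where 10.8% of all genes were. The part of MYC, of cycling and of the position on the chromosome in the differences of the ribosomal protein genes was not tested.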

How the data were processed

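Per the labels, poly(A) RNA was taken from 1 µg of total RNA for each of the 12 THP-1 libraries, with a stranded kit. The authors deposited raw counts of reads per gene for 58051 Ensembl genes on hg38. Per the file headers, exon reads were counted per gene with featureCounts 2.0.3, mates apart, primary alignments only, without chimeric pairs and with no strand option. Reads that overlap several genes were thus not assigned, which bears on RPS10, RPL17 and RPL36A beside their readthrough genes, reads of antisense genes cannot be told apart, and of a read that matches a gene and its pseudogenes 1 place was counted. The submitters' processing notes also name MultiQC 1.13, FastQC, Picard 2.27.5, Subread, BWA, fastp 0.23.2 and STAR 2.7.10b. The aligner behind the counts was not given in the sources used here, nor was the annotation release. Symbols came from a separate table of gene names, and gene types from RefSeq and GENCODE 29. Mitochondrially encoded genes had 0 counts.

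From the deposited counts, CPM and log2 fold changes were calculated. Genes were filtered with edgeR's filterByExpr (17119 kept), scaled by TMM and tested by quasi-likelihood in edgeR 4.0.16, with 1 model over the 12 libraries that had a term for group alone. P-values are two-sided and adjusted by Benjamini-Hochberg over all genes tested, and calls are at an adjusted p under 0.05. Libraries of the same group differed by a chi-square of 2.90 to 7.58 per degree of freedom, beyond sampling noise, so none was counted as a copy. The fits were tested on simulated data. Alternatives were RLE, upper-quartile and library-total scaling, TMM without the members, DESeq2 1.42.0, limma-voom (limma 3.58.1), no filter on low counts, a minimum of 5 CPM in 3 libraries, a model of the compared libraries alone, a replicate block, leaving out each library, and members summed with their named pseudogenes. The members and lists were chosen with earlier results of these data known. Named in each comparison are the 6 largest rises and 6 largest falls among called members, the paralogues with their parents, the stalk genes, and RPSA, RPS27A, RPS6, RPL5, RPL11, RPL13A, RPS3, RPS14 and RPS19; from other lists up to 2 risen and 2 fallen genes. Other names were chosen for their biology or after their values were seen. For length, some list members are left out, and 1 gene that the rule names is not reported here. Scripts ran in Python 3.11.15, with matplotlib 3.10.9, numpy 2.4.6 and pandas 2.3.3, and in R 4.3.3.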

Additional observations from a re-analysis of the deposited data

Results flagged for a closer look

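RPS27L was the member for which KO and WT differed in the IFN-γ response. The response was -0.07 in KO and -0.32 in WT on the log2 scale, and their difference, KO minus WT, was 0.26 (SE 0.09, adjusted p = 0.040, edgeR). Over the alternatives the adjusted p ran from 0.016 to 0.16. The call was lost with library totals (0.21, adjusted p = 0.094) and without KO replicate 1 (adjusted p = 0.055) or 3 (0.12) with IFN-γ, KO replicate 2 without IFN-γ (0.16), WT replicate 1 (0.071) or 2 (0.12) with IFN-γ, or WT replicate 1 (0.088) or 3 (0.062) without IFN-γ. The value stayed above 0 in each of these.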

How the results depend on the processing

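The calls in the genotype comparisons changed less with the processing than those of the IFN-γ responses, which moved with the scaling. With library totals, 2 members were higher in KO against WT with IFN-γ (median log2 fold change -0.36), 0 were higher and 79 lower with IFN-γ in KO (-0.44), 0 and 78 in WT (-0.35), and 0 and 6 for the difference of the responses. With upper-quartile scaling these were 0 and 70 in KO (-0.26) and 0 and 66 in WT (-0.22), with 1 lower for the difference. In KO 3 were higher with IFN-γ with at least 5 CPM in 3 libraries, and 8 with only the compared libraries. For the difference 2 were higher with RLE size factors and with no low-count filter, 3 lower with at least 5 CPM, 1 lower with limma-voom and 1 lower with pseudogenes summed. The cause of each was not tested. Reversed with library totals were, in KO with IFN-γ, RPL28 (-0.11), RPL36AL (-0.17), RPS19BP1 (-0.058), RPS27 (-0.26) and RPS27A (-0.16), and in WT RPL28 (-0.045), RPL36AL (-0.11), RPLP2 (-0.18), RPS19 (-0.20) and RPS27A (-0.10). Leaving out 1 library at a time gave 65 to 70 lower in KO with IFN-γ, 63 to 67 without it, 40 to 48 and 36 to 44 for IFN-γ in KO and in WT, and 0 to 1 lower and 0 to 2 higher for the difference. Over the values of single named genes and all alternatives, 2522 kept direction and side of the threshold, 63 lost the call, 45 gained it and 10 reversed. The share of the counts was 2.19%, 2.77%, 3.00% and 3.6% with pseudogenes, 0.727%, 0.926%, 0.945% and 1.16% for the small subunit alone and 1.04%, 1.34%, 1.48% and 1.77% for the large subunit with the stalk, in KO with IFN-γ, WT with IFN-γ, KO without it and WT without it. With the replicate number as a block, 4 members were higher and 69 lower in KO with IFN-γ, 3 and 68 without it, 5 and 44 with IFN-γ in KO, 4 and 43 in WT, and 1 and 0 for the difference. The numbers were not taken to pair the samples. Of 18 same-numbered pairs 2 had a correlation over 0.1, with values from -0.15 to 0.25. With 3 libraries a group this neither shows nor excludes a pairing. Depth limits RPL17, RPS10, RPL36A and RPL39L, at a few CPM.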
